A study of Mus musculus with 40 samples.

Results

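Fga, Fgb, Fgg, Pzp, Hp, Cp, Serpina3n, Lrg1, Saa1 and Saa3 are 10 genes whose products are fibrinogen or other plasma proteins of the acute phase response, and their transcripts were followed here in mouse kidney. They were chosen by symbol from 55359 gene identifiers, and 8 of the 10 passed the filter on low counts, against 17345 genes in all. Fgb and Pzp were selected on their change in CPM at the highest dose against vehicle. Their values at that dose are therefore given as a description, without a test. Right kidneys of 40 male C57BL/6 mice were sequenced as bulk tissue, 5 mice and 5 libraries in each of 8 groups. The vehicle group received sesame oil by oral gavage. The other groups received 2,3,7,8-tetrachlorodibenzo-p-dioxin (TCDD) in sesame oil at 0.03, 0.1, 0.3, 1, 3, 10 or 30 µg/kg. All mice were gavaged every 4 days, 7 times in all, starting at an age of 30 days. The labels give an end age of 58 days and a time point of 28 days. The labels name neither litters nor batches, so the tests measure the spread between these mice only.

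TCDD binds the aryl hydrocarbon receptor, which then enters the nucleus and switches on Cyp1a1 and further detoxification genes. Acute phase proteins are secreted, mainly by hepatocytes, when cytokines of the interleukin-6 family act through STAT3 and C/EBP factors. Fibrinogen is built from 3 chains encoded by neighbouring genes, and thrombin converts it to fibrin. Injured kidney tubule cells are also known to make fibrinogen chains, complement C3 and lipocalin.

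The fibrinogen genes lie side by side on chromosome 3 (GENCODE M21, GRCm38), with Fgg at chr3:83007724-83015049 (plus strand), Fga at chr3:83026076-83033627 (plus strand) and Fgb at chr3:83040141-83049863 (minus strand). Pzp lies at chr6:128483567-128526720 (minus strand), and Cp at chr3:19957054-20009145 (plus strand). All are annotated as protein-coding. The 250 bases before the RefSeq start of the 3 fibrinogen genes and of Pzp are shown because the fibrinogen genes were highest in the libraries in which Pzp was lowest. The RefSeq starts (GRCm38.p6) are used, and that of Fga lies downstream of its GENCODE start. Sequences run 5′ to 3′ on the gene's strand, and capitals mark matches, on either strand, to any of 5 short patterns listed after them.
Fga, chr3:83025903-83026152, plus strand: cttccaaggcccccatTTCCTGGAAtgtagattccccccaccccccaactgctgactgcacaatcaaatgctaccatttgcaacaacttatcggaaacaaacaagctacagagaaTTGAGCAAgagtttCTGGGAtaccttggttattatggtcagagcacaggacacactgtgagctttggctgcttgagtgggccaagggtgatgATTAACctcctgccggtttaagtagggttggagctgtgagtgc
Fgb, chr3:83049864-83050113, minus strand: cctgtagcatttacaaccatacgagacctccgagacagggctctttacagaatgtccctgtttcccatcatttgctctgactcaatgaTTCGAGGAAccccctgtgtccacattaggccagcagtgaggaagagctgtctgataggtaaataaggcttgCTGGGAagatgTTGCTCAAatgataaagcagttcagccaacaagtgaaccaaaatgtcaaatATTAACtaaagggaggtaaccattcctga
Fgg, chr3:83007474-83007723, plus strand: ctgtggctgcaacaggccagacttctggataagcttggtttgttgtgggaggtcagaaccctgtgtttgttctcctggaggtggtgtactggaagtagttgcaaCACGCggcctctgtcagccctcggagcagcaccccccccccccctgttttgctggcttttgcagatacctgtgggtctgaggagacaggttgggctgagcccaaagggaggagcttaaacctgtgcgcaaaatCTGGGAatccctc
Pzp, chr6:128526721-128526970, minus strand: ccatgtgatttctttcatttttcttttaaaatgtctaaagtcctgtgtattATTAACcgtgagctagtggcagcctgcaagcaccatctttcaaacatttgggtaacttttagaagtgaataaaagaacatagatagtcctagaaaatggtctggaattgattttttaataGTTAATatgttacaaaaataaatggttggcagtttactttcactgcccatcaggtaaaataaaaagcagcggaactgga

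The patterns searched were GCGTG (core of the xenobiotic response element), TTCNNNGAA (STAT site), CTGGGA (type II interleukin-6 element), GTTAAT (part of an HNF1 site) and TTGCNNAA (C/EBP-like site). Over 32851 RefSeq windows of the same length, these were found in 28.2%, 7.02%, 27%, 6.43% and 9.56%. The Fga and Fgb windows each held the STAT, interleukin-6, HNF1 and C/EBP-like patterns. Their STAT patterns started at positions -234 and -162, their interleukin-6 patterns at -121 and -91, and their HNF1 patterns at -43 and -29, counting -1 as the base before the start. The Fgg window held the interleukin-6 pattern at -13 and the xenobiotic core at -146. The Pzp window held 2 HNF1 patterns, at -199 and -79, and no match to the others. No 2 patterns overlapped in these windows. A match describes letters only, and binding was not measured. Windows were found for 9 of the 10 genes, without Hp.

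Each library held between 15278423 and 25575317 gene counts. Levels are in CPM, a gene's count relative to all gene counts of its library on the usual scale, after TMM scaling. Cyp1a1 averaged 2.37 CPM in vehicle against 2537 CPM at 30 µg/kg. All 5 libraries of that dose were above every vehicle library, as for 3.59% of all genes. The kidney origin was checked on 12 tubule and podocyte markers, which summed to 14978 to 18027 CPM in vehicle against 11937 to 16290 CPM at 30 µg/kg.

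At 0.03, 0.1, 0.3, 1 and 3 µg/kg, 0 of the 8 tested genes were called against vehicle by edgeR (quasi-likelihood test, Benjamini-Hochberg adjusted p under 0.05), and 0, 0, 0, 1 and 0 of them had an unadjusted p under 0.05. DESeq2 also called 0 at each of these doses. The share of all tested genes called at these doses was 0%, 0%, 0.00577%, 0.513% and 1.09%. At 1 µg/kg this was 0.507% higher, and at 3 µg/kg 1.03% higher and 0.0634% lower. At 10 µg/kg, Cp was called higher, 1 of 8, where 4.82% of all genes were called, 3.82% higher and 0.997% lower. At 30 µg/kg, 4 of the 6 genes that could be tested were called, and Fga, Fgg, Cp and Lrg1 were all higher. Of all genes, 15.9% were called at that dose, 8.39% higher and 7.55% lower. The median log2 fold change of the 6 was 1.21, against 0.011 for all genes. Hp and Serpina3n were not called, and Saa1 and Saa3 did not pass the filter. These comparisons all share the 5 vehicle libraries.

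**Figure D1:**
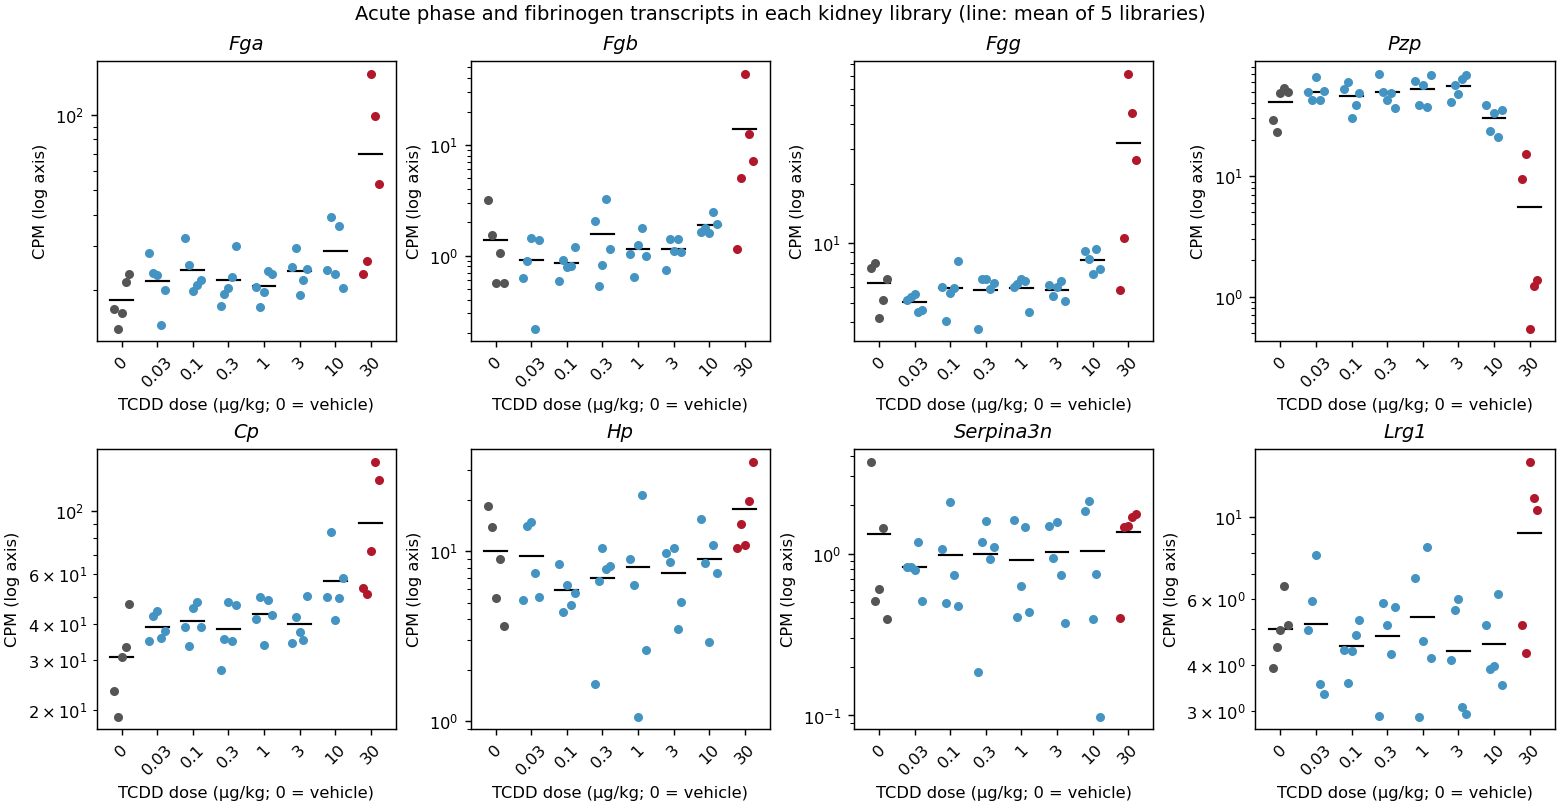
CPM (log axis) of the 8 tested genes in each of the 40 libraries by TCDD dose, with 0 for vehicle and a line at each group's mean of 5 libraries. The fibrinogen genes spread widely at 30 µg/kg, as for Fgb from 1.14 to 43.8 CPM, and Pzp there lies below every vehicle library.

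Fga encodes the fibrinogen alpha chain, which carries a peptide that thrombin removes. In vehicle libraries 1 to 5, Fga stood at 16.7, 14.0, 16.1, 21.5 and 23.1 CPM. At 30 µg/kg it stood at 23.2, 26.2, 146.6, 99.2 and 53.1 CPM. All 5 treated libraries were above every vehicle library, libraries 1 and 2 by little and libraries 3, 4 and 5 by more than the whole vehicle range. Among all genes, 3.59% had all 5 libraries of this dose above every vehicle library. The means were 18.3 ± 3.84 and 69.7 ± 52.7 CPM (SD, n = 5), and the log2 fold change was 1.93 ± 0.32 (SE; edgeR adjusted p = 6.26e-05). In bulk tissue, more cells of a type and more RNA per cell cannot be told apart.

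Fgg encodes the gamma chain, which holds sites for cross-linking and for platelets. In vehicle libraries 1 to 5, Fgg stood at 7.55, 8.00, 4.19, 5.19 and 6.57 CPM. At 30 µg/kg it stood at 5.79, 10.7, 71.7, 45.5 and 26.4 CPM. Library 1 lay inside the vehicle range and the other 4 lay above it, in the order 3, 4, 5 and 2. The mean rose from 6.30 ± 1.60 to 32.01 ± 27.1 CPM (SD, n = 5), and the fitted difference was 2.34 ± 0.36 on the log2 scale (edgeR adjusted p = 1.68e-05). Of the exonic bases of Fgg, 5.50% are shared with Gm30097, and reads there cannot be assigned by strand.

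Fgb encodes the beta chain, and it was the scarcest of the 3. In vehicle libraries 1 to 5, Fgb stood at 3.17, 1.52, 0.561, 1.05 and 0.567 CPM, which are 55, 30, 13, 16 and 10 counts. At 30 µg/kg it stood at 1.14, 4.98, 43.8, 12.5 and 7.10 CPM, or 20, 88, 646, 222 and 186 counts. Library 1 lay again inside the vehicle range and library 3 was highest. The means were 1.37 ± 1.08 and 13.9 ± 17.2 CPM (SD, n = 5). The fitted log2 fold change, given without a test, was 3.34 ± 0.60 and was 2.22 without library 3 of the dose, 3.90 without vehicle library 1 and 4.26 without vehicle libraries 1 and 2.

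The fit behind these values takes its spread from all 8 groups. When the 10 libraries of vehicle and 30 µg/kg were fitted alone, the log2 fold changes were 1.93 for Fga and 2.34 for Fgg, but neither passed (edgeR adjusted p = 0.0734 and 0.0769). Cp was then the 1 gene called at 30 µg/kg. Without library 3 of the dose, Fga was 1.46 higher (adjusted p = 0.000446) and Fgg 1.80 higher (adjusted p = 5.96e-05) on the log2 scale.

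**Figure D2:**
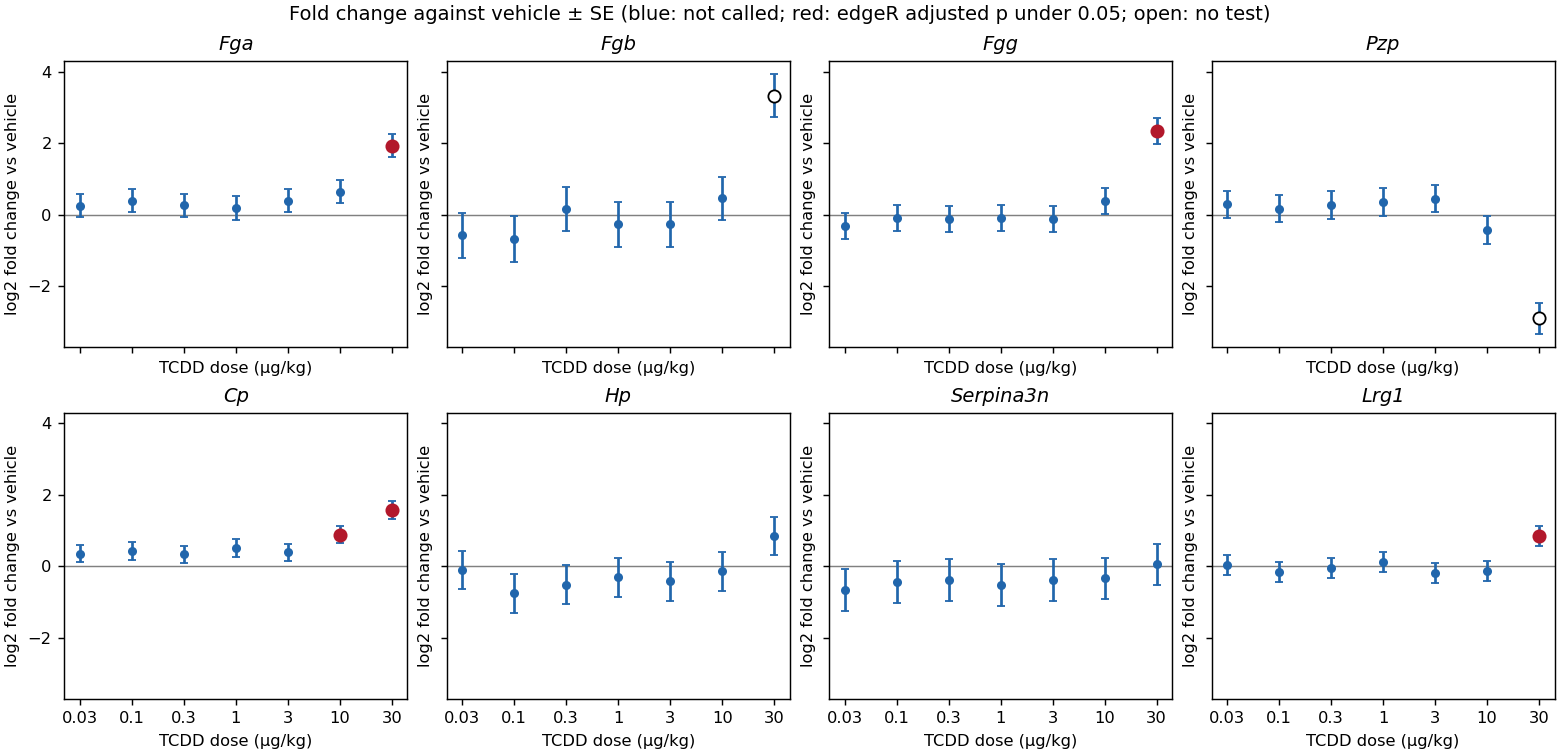
Log2 fold change against vehicle with its SE for the 8 tested genes at each of 7 TCDD doses, from 1 edgeR fit of 40 libraries. Red points passed the test, and open points (Fgb and Pzp at 30 µg/kg) have no test, while Cp passed at 10 and at 30 µg/kg.

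The 3 chains kept 1 order of libraries at 30 µg/kg. Library 3 was highest for each chain, followed by libraries 4, 5, 2 and 1. From the lowest to the highest library of the dose, Fga spanned 6.31-fold, Fgg 12.4-fold and Fgb 38.6-fold. The same ratios were 1.65, 1.91 and 5.64 in vehicle. Levels of the chains can be compared only per length. Per kilobase of exon, vehicle means were 6.07 ± 1.27 CPM for Fga, 3.01 ± 0.763 CPM for Fgg and 0.361 ± 0.283 CPM for Fgb (SD, n = 5). In library 3 of 30 µg/kg they reached 48.7, 34.2 and 11.5 CPM per kilobase. The ratio of Fga to Fgg per kilobase had a median of 2.44 in vehicle (1.21 to 2.88) and of 1.52 at 30 µg/kg (1.40 to 2.79), and the groups overlapped. The ratio of Fgb to Fgg had a median of 0.104 in vehicle (0.0474 to 0.231) and of 0.150 at 30 µg/kg (0.108 to 0.336), and these overlapped too.

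**Figure D3:**
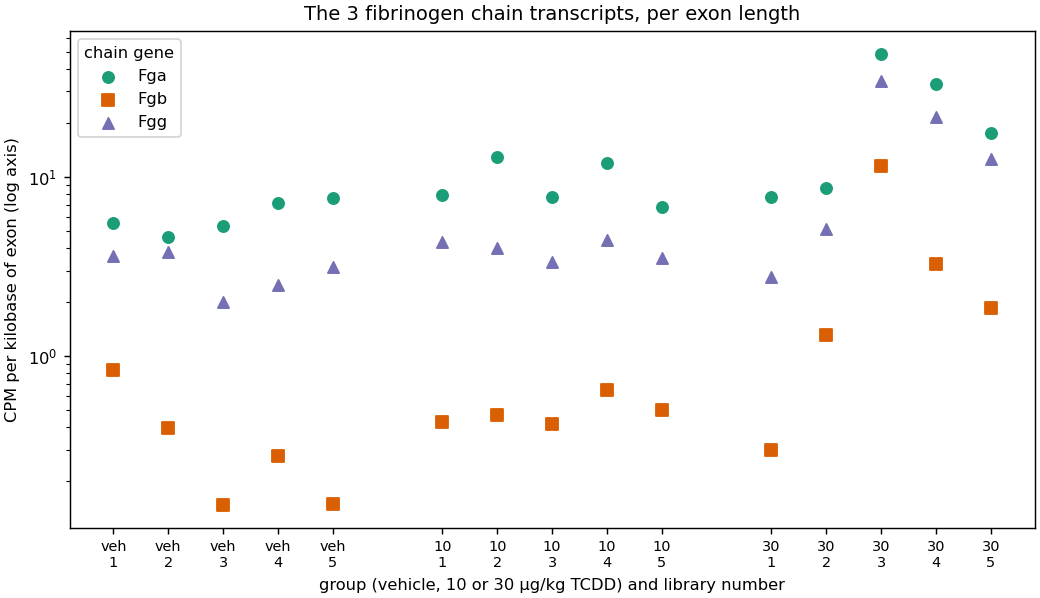
CPM per kilobase of exon (log axis) of Fga, Fgb and Fgg in each library of vehicle, 10 and 30 µg/kg TCDD. Fgb is the lowest of the 3 in each library shown, and in library 3 of 30 µg/kg the chains reach 48.7 (Fga), 34.2 (Fgg) and 11.5 (Fgb).

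Below the highest dose, 0 of the 3 fibrinogen genes were called against vehicle. At 10 µg/kg, Fga stood at 24.0, 39.0, 23.2, 36.0 and 20.4 CPM, so that 4 of 5 libraries were above every vehicle library (log2 fold change 0.65 ± 0.32, edgeR adjusted p = 0.322). Fgg stood at 9.12, 8.36, 7.03, 9.34 and 7.41 CPM, with 3 of 5 above (0.39 ± 0.36, adjusted p = 0.679). Fgb stood at 1.64, 1.78, 1.59, 2.47 and 1.92 CPM, all inside the vehicle range (0.47 ± 0.60, adjusted p = 0.799). None of these passed the test. Among all genes, 4.32% had all 5 libraries of 10 µg/kg above every vehicle library and 1.82% had all 5 below. The share of genes with 3 or 4 of 5 libraries above was not counted. The group means of Fgg from 0.03 to 3 µg/kg ran from 5.05 to 5.98 CPM, below the vehicle mean of 6.30, and the range of each of these groups overlapped that of vehicle.

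A trend over the 6 doses from 0.03 to 10 µg/kg leaves out both vehicle and the dose for which Fgb and Pzp were picked. In these 30 libraries, Fgg was the 1 gene of 8 called, with a slope of 0.10 ± 0.03 on the log2 scale per dose step (edgeR adjusted p = 0.0130), where 8.73% of all genes were called, 5.37% rising and 3.36% falling. The call rested on library 4 of 10 µg/kg, without which 0 genes were called and Fgg had an adjusted p of 0.0508. With the first stranded column, a run on fewer reads that does not separate strands, the adjusted p of Fgg was 0.133. The slope was 0.18 ± 0.07 for Fgb (adjusted p = 0.115), 0.08 ± 0.03 for Cp (adjusted p = 0.0817) and -0.06 ± 0.05 for Pzp (adjusted p = 0.484). Without library 4 of 0.3 µg/kg, Fgb was called as well (adjusted p = 0.0494). The libraries of 10 µg/kg were the highest of the 6 groups in mean for each chain, at 28.5 ± 8.39 CPM for Fga, 8.25 ± 1.02 CPM for Fgg and 1.88 ± 0.355 CPM for Fgb (SD, n = 5). Over all 8 groups, the trend with dose rank called Fga, Fgg and Cp, 3 of the 6 genes that could be tested, all rising, where 19.8% of all genes were called, 11% rising and 8.84% falling.

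Cp encodes ceruloplasmin, a copper-carrying ferroxidase of plasma that oxidises iron for loading onto transferrin. In vehicle libraries 1 to 5, Cp stood at 23.3, 19.0, 30.7, 33.3 and 47.1 CPM. At 10 µg/kg it stood at 50.0, 84.1, 41.5, 49.3 and 58.0 CPM, and at 30 µg/kg at 53.5, 51.1, 72.2, 148.1 and 128.5 CPM. Of the libraries at 10 µg/kg, 4 of 5 were above every vehicle library, and at 30 µg/kg all 5 were, as for 3.59% of all genes. The order at 30 µg/kg, with libraries 4 and 5 highest, was not that of the fibrinogen chains. The mean was 30.7 ± 10.8 CPM in vehicle, 56.6 ± 16.5 CPM at 10 µg/kg and 90.7 ± 44.8 CPM at 30 µg/kg (SD, n = 5). The log2 fold change was 0.88 ± 0.25 at 10 µg/kg (edgeR adjusted p = 0.0290) and 1.57 ± 0.25 at 30 µg/kg (adjusted p = 2.95e-05). Cp at 30 µg/kg was called in each alternative run. The call at 10 µg/kg was lost without library 2 or 5 of the dose (adjusted p = 0.147 and 0.0571) and without vehicle library 1, 2 or 3 (adjusted p = 0.0949, 0.113 and 0.0599). Without vehicle libraries 1 and 2 together, Cp was 0.61 higher at 10 µg/kg (adjusted p = 0.321).

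Pzp encodes a plasma protease inhibitor of the alpha-2-macroglobulin family. In vehicle libraries 1 to 5, Pzp stood at 29.4, 23.1, 48.4, 53.6 and 49.8 CPM. At 30 µg/kg it stood at 9.37, 15.2, 0.542, 1.24 and 1.38 CPM, or 165, 268, 8, 22 and 36 counts. All 5 treated libraries were below every vehicle library. Of all genes, 2.83% showed this, a share from which nothing is read here because Pzp was selected on this change. The library highest in fibrinogen, library 3, was lowest in Pzp, and libraries 1 and 2, lowest in fibrinogen, kept the most Pzp. The means were 40.9 ± 13.7 and 5.54 ± 6.48 CPM (SD, n = 5). The fitted log2 fold change, given without a test, was -2.90 ± 0.44, and it was -3.72 without library 2 of the dose. From 0.03 to 3 µg/kg the means lay between 46.0 and 55.7 CPM, above that of vehicle, and 0 of these groups were called. At 10 µg/kg, Pzp stood at 39.1, 23.4, 33.0, 20.9 and 35.5 CPM, and 1 of 5 libraries was below every vehicle library (log2 fold change -0.43 ± 0.39, edgeR adjusted p = 0.675). The highest of these values, 39.1 CPM, lay below the lowest of 0.03 and of 3 µg/kg (42.4 and 40.9 CPM). It lay above the lowest of 0.1, 0.3 and 1 µg/kg (30.3, 36.3 and 37.3 CPM). How many of all genes separate these doses was not counted. Of the exonic bases of Pzp, 4.72% are shared with Gm10069. The related A2m averaged 0.207 CPM in vehicle and was at 0 counts in the 5 libraries of 30 µg/kg, and Mug1 averaged 0.0101 CPM and was also at 0 there.

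Hp, Lrg1 and Serpina3n encode haptoglobin, which binds free haemoglobin, a leucine-rich glycoprotein that modulates signalling by TGF-beta, and a serine protease inhibitor. Hp stood at 18.5, 13.8, 5.36, 9.01 and 3.63 CPM in vehicle and at 10.5, 14.4, 10.8, 19.7 and 33.6 CPM at 30 µg/kg. The groups overlapped, and the log2 fold change of 0.83 ± 0.53 did not pass (edgeR adjusted p = 0.327). Lrg1 stood at 3.92, 4.46, 4.97, 6.51 and 5.10 CPM in vehicle and at 5.11, 4.30, 14.0, 11.2 and 10.4 CPM at 30 µg/kg. Libraries 3, 4 and 5 were above every vehicle library and libraries 1 and 2 were inside their range. The log2 fold change of Lrg1 was 0.85 ± 0.27 (adjusted p = 0.0257). This call was lost without library 3, 4 or 5 of the dose (adjusted p = 0.122, 0.0828 and 0.0633), without vehicle library 1, 2 or 3 (0.0681, 0.0589 and 0.0523), without vehicle libraries 1 and 2 together (0.163), without the filter on low counts (0.0534) and in the fit to the 2 groups alone (0.103). Serpina3n stood at 3.69, 0.507, 0.605, 1.45 and 0.397 CPM in vehicle and at 0.398, 1.47, 1.49, 1.68 and 1.76 CPM at 30 µg/kg. The vehicle libraries spanned the treated ones, and the log2 fold change was 0.05 ± 0.57 (adjusted p = 0.970). Its near copies Serpina3g and Serpina3f averaged 0.368 and 0.189 CPM in vehicle against 1.02 and 0.712 CPM at 30 µg/kg, and neither passed the test (adjusted p = 0.105 and 0.109).

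Saa1 and Saa3 encode serum amyloid A proteins, which rise steeply in the acute phase in liver and, for Saa3, also in other tissues. Saa1 had 0 counts in 38 of 40 libraries, 3 counts in library 5 of 3 µg/kg and 2 counts in library 5 of 30 µg/kg. A library at 0 allows a level of up to 0.117 to 0.196 CPM (3 counts, depending on its depth, for counting error only). Saa3 had 97 counts over all libraries and more than 3 counts in 9 of them. It had 1, 7, 7, 0 and 22 counts (up to 0.840 CPM) at 30 µg/kg and in vehicle 3, 3, 0, 0 and 0 counts. The serum amyloid genes were thus near or at the limit of detection in most of these libraries. Saa2, next to Saa1, was at 0 in vehicle and had at most 0.0568 CPM at 30 µg/kg. Reads that map to several places were not counted by gene. Of windows of 150 bases, 0 of 460 from the Saa1 transcript and 0 of 2051 from that of Saa3 occurred unchanged in transcripts of other genes. The part of such reads in these low counts was not tested further.

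The adipocyte transcripts Adipoq, Plin1, Cidec and Retn were followed because perirenal fat can come with a kidney. They summed to 30.3 to 83.4 CPM in vehicle and to 51.7 to 150 CPM at 30 µg/kg. Hp followed this sum, with a Spearman correlation of 0.848 over 40 libraries and 0.775 over the 30 libraries of 0.03 to 10 µg/kg. For Lrg1 the correlations were 0.478 and 0.534, for Serpina3n 0.481 and 0.442, for Fga 0.359 and 0.373, for Fgg 0.432 and 0.188, and for Fgb 0.351 and 0.0492. For Cp they were 0.308 and 0.279, and for Pzp -0.512 and -0.281. These are descriptions over libraries that share dose groups and depth. Hp, Serpina3n and Lrg1 also followed each other, with 0.652 for Hp and Serpina3n and 0.593 for Hp and Lrg1. With the log2 of the sum as a term in the fit, added after the data were seen, the log2 fold change of Hp at 30 µg/kg was 0.09 (edgeR adjusted p = 0.888) and that of Lrg1 was 0.70 (adjusted p = 0.0856). Without vehicle libraries 1 and 2, also added after the data were seen, Hp was 1.58 higher on the log2 scale (adjusted p = 0.1099), and without library 5 of the dose 0.46 (adjusted p = 0.671). With the adipocyte term, Fga, Fgg and Cp stayed called, at 1.89, 2.29 and 1.43 (adjusted p = 0.000198, 4.97e-05 and 0.000250). Of the 12 adipocyte markers, 3 were called higher and 1 lower at 30 µg/kg, beside 8.39% and 7.55% of all genes. These were Ucp1, Pnpla2 and Lipe (log2 fold change 3.17, 0.97 and 0.75) and, lower, Lep (-2.71), none of them in the sum. Adipoq, Plin1, Cidec and Retn, which make up the sum, were not called (edgeR adjusted p = 0.249, 0.442, 0.0713 and 0.994).

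**Figure D4:**
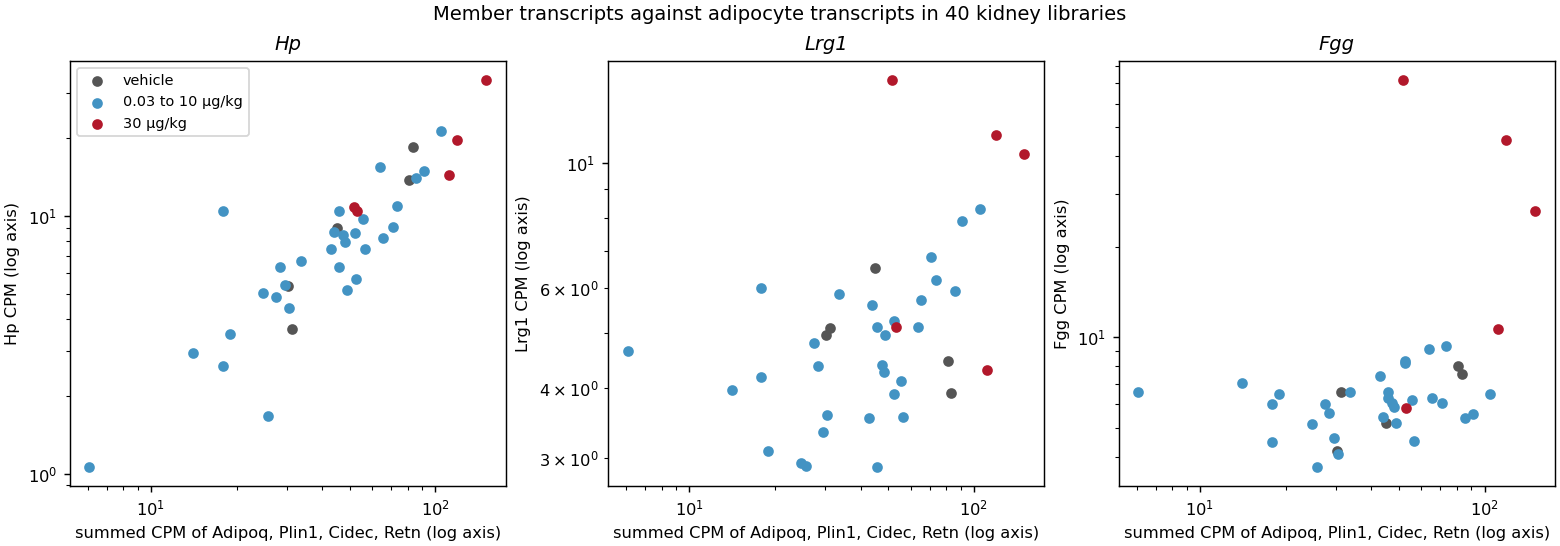
CPM of Hp, Lrg1 and Fgg (log axes) against the summed CPM of 4 adipocyte transcripts in 40 libraries, coloured by group. Hp climbs along the sum (Spearman correlation 0.848), while the highest Fgg library of 30 µg/kg, at 71.7 CPM, has the lowest sum of its group, 51.7 CPM.

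Hepatocytes are the main source of these proteins in the body, and their markers were followed too. The sum of Alb, Apoa1 and Ahsg was 6.65 to 9.74 CPM in vehicle against 4.04 to 9.05 CPM at 30 µg/kg, with 5.83 CPM in library 3. Ahsg was at 0 counts in 4 of these 5 libraries. Of 20 hepatocyte markers, 13 passed the filter, and at 30 µg/kg 3 were called higher (Serpina1a, Ambp and Apoc3) and 1 lower (Ttr). Over all genes, 8.39% were called higher and 7.55% lower at that dose. The hepatocyte list summed to 230 to 551 CPM in vehicle against 321 to 580 CPM at 30 µg/kg. Of 13 neutrophil markers, 5 passed the filter and 0 were called. Their sum was 2.23 to 3.28 CPM in vehicle against 2.26 to 7.61 CPM at 30 µg/kg, and Mpo was at 0 in each library. Of 10 macrophage markers, 8 were called higher at 10 µg/kg and 8 at 30 µg/kg. In vehicle they summed to 211 to 258 CPM, at 10 µg/kg to 494 to 960 CPM and at 30 µg/kg to 350 to 660 CPM, and library 3, highest in fibrinogen, had the lowest sum of its dose. The part of these cell types in the results was not tested.

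Of 27 other acute phase genes, 15 passed the filter, and 6 were called higher and 0 lower at 30 µg/kg (median log2 fold change 0.70, against 0.011 for all genes, of which 8.39% were called higher and 7.55% lower). Complement C3, the central complement protein, averaged 42.6 ± 21.5 CPM in vehicle and stood at 77.5, 106.7, 449.7, 372.4 and 267.3 CPM at 30 µg/kg (log2 fold change 2.58 ± 0.41, edgeR adjusted p = 2.58e-05). Library 1 lay inside the vehicle range, which reached 78.3 CPM, and the other 4 lay above it. Its order of libraries, 3, 4, 5, 2 and 1, was that of the fibrinogen chains. Mt1, a metallothionein that binds zinc and copper, averaged 77.8 ± 5.56 CPM in vehicle against 191.6 ± 26.2 CPM at 30 µg/kg (1.30 ± 0.13, adjusted p = 1.17e-09). All 5 libraries of that dose were above every vehicle library, as for 3.59% of all genes. Serping1, the inhibitor of the first complement component, was 0.60 ± 0.10 higher (adjusted p = 4.61e-05). Of 15 tubular injury genes, 6 were called higher and 1 lower at 30 µg/kg (median log2 fold change 0.63), beside 8.39% and 7.55% of all genes. Lcn2, lipocalin, was 1.405 ± 0.317 higher (edgeR adjusted p = 0.00119), and Clu was 0.42 lower (adjusted p = 0.000659). Havcr1 was not called (-0.63 ± 0.49, adjusted p = 0.444). The part of tubular injury in the results was not tested.

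Among 29 genes of cytokine and STAT3 signalling, 24 passed the filter, 10 were called higher and 1 lower at 30 µg/kg (median log2 fold change 0.12, against 0.011 for all genes, with 8.39% called higher and 7.55% lower). Il6 itself was near 0, with a mean of 0.0364 CPM in vehicle against 0.0271 CPM at 30 µg/kg. The receptors Osmr, for oncostatin M, and Il1r1, for interleukin-1, rose by 1.09 ± 0.17 and 0.63 ± 0.12 on the log2 scale (edgeR adjusted p = 7.08e-06 and 9.16e-05). Both were also called at 10 µg/kg (adjusted p = 1.67e-06 and 0.000535), where no fibrinogen gene was. Cebpd, a C/EBP factor of the acute phase, averaged 5.53 ± 0.983 CPM in vehicle and stood at 5.45, 8.37, 25.2, 20.8 and 21.6 CPM at 30 µg/kg. It was called (1.56 ± 0.28, adjusted p = 0.000128), with library 1 inside the vehicle range, as for Fgg. Socs3, a target and inhibitor of STAT3, averaged 1.93 ± 0.581 CPM in vehicle and stood at 4.49, 3.22, 5.36, 5.84 and 5.04 CPM (1.31 ± 0.30, adjusted p = 0.00153). Hnf4a, a factor of hepatocytes and proximal tubule, fell by 0.24 on the log2 scale (adjusted p = 0.0243). The shared signal subunit Il6st and the kinase Jak1, the most abundant genes of the list beside Hnf4a, had log2 fold changes of 0.03 and -0.12 (adjusted p = 0.807 and 0.317).

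Of 24 genes that act on fibrinogen or on clots, 22 passed the filter, 6 were called higher and 3 lower at 30 µg/kg (median log2 fold change 0.35). Over all genes the median was 0.011, and 8.39% were called higher and 7.55% lower. Thbd, the thrombin receptor of endothelium, and Vwf, von Willebrand factor, were 0.68 ± 0.11 and 1.52 ± 0.31 higher (edgeR adjusted p = 1.51e-05 and 0.000505). Serpinf2, the plasmin inhibitor, averaged 403.1 ± 38.2 CPM in vehicle against 235.1 ± 43.9 CPM at 30 µg/kg. All 5 treated libraries were below every vehicle library, as for 2.83% of all genes, and Serpinf2 fell by 0.78 on the log2 scale (adjusted p = 1.61e-07). Proc, protein C, and F2, prothrombin, fell by 0.49 and 2.33 (adjusted p = 0.000151 and 0.0123), F2 from a mean of only 0.740 CPM. Plau, urokinase, the most abundant of the list, did not pass (0.35 ± 0.23, adjusted p = 0.333).

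Of 10 genes of iron and haem handling, beside which ceruloplasmin and haptoglobin act, 5 were called higher and 0 lower at 30 µg/kg (median log2 fold change 0.48, beside 0.011 and 8.39% called higher over all genes). Hmox1, haem oxygenase, stood at 66.3, 35.2, 292.8, 112.4 and 43.3 CPM against 35.7 ± 4.61 CPM in vehicle (1.62 ± 0.33, edgeR adjusted p = 0.000720). Library 3 was again highest. Slc40a1, ferroportin, and Lrp1, a receptor for protease complexes and haem-hemopexin, were 0.74 ± 0.14 and 0.63 ± 0.12 higher (adjusted p = 0.000323 and 0.000179). Fth1, the ferritin heavy chain, did not pass (0.11 ± 0.07, adjusted p = 0.371). Cyp1a1 stood at 2884, 2088, 2074, 2996 and 2644 CPM in libraries 1 to 5 of the dose, and library 3 was the lowest. Nqo1, another gene checked for the response to TCDD, stood at 139.9, 96.5, 159.9, 263.9 and 175.0 CPM, and library 4 was the highest. Whether activity of the aryl hydrocarbon receptor bears on the order of libraries was not tested.

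**Figure D5:**
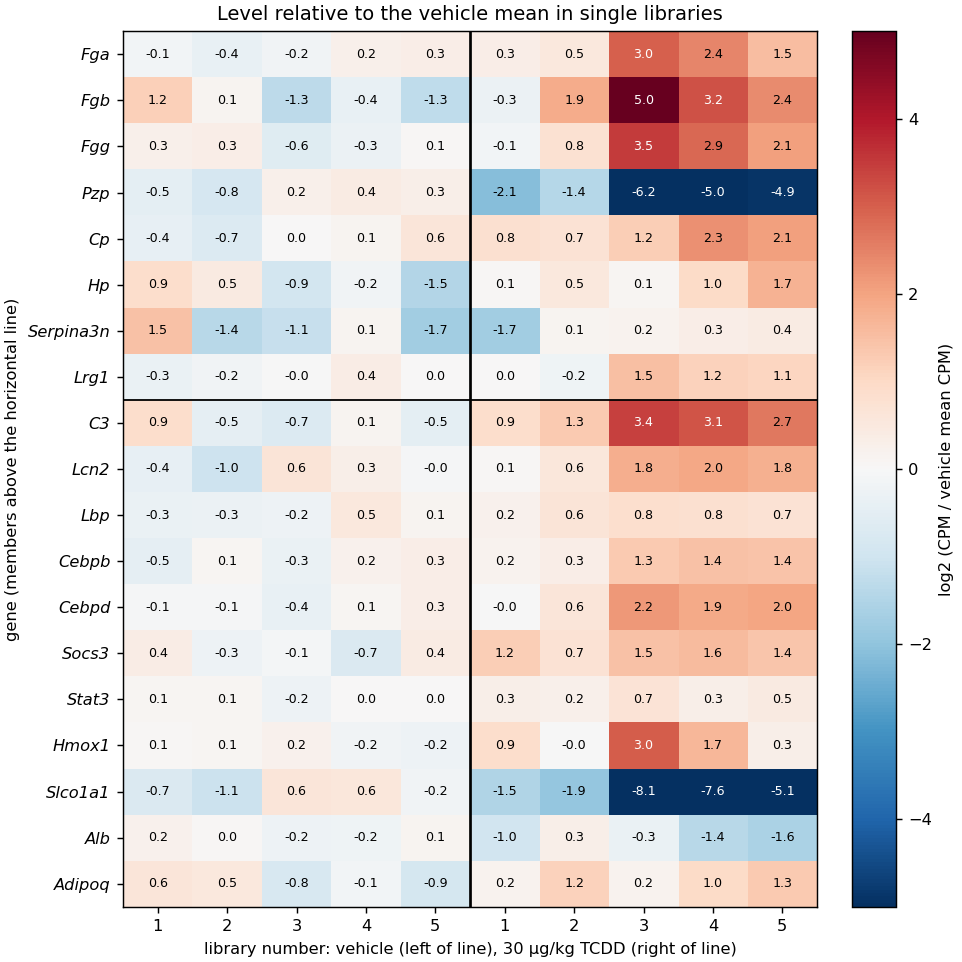
Log2 of CPM over the vehicle mean in the 5 vehicle and 5 libraries of 30 µg/kg TCDD for 8 tested genes (top) and 11 others picked after their values were seen. The colour scale ends at 5 in either direction, and libraries 3, 4 and 5 of the dose show the highest fibrinogen, C3 and Cebpd and the lowest Pzp and Slco1a1.

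The genes most like Fgb over the 40 libraries, by Spearman correlation of log2 CPM among 17344 other genes, were Lama3 (0.748), Clca3a1 (0.718) and Abcc3 (0.699). Over the 30 libraries of 0.03 to 10 µg/kg these were 0.644, 0.548 and 0.576. Abcc3, an exporter of organic anions, averaged 6.02 ± 2.59 CPM in vehicle and stood at 8.63, 15.4, 21.0, 29.9 and 30.5 CPM at 30 µg/kg. Lama3, a laminin chain of basement membranes, averaged 41.8 ± 9.50 and 54.0 ± 9.93 CPM in these groups, and Clca3a1 averaged 5.83 ± 2.25 and 13.4 ± 5.91 CPM. Vehicle libraries 1 and 2, highest of their group in Fgb, were the highest in each of these genes. All of these genes were selected for likeness to Fgb over the same libraries, so nothing is read from this.

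The genes most like Pzp were Slco1a1 (0.884), Slco3a1 (0.881) and Cd36 (0.875), and over the 30 libraries 0.862, 0.772 and 0.805. Slco1a1, an organic anion transporter with higher levels in male kidney, stood at 116.4, 90.8, 293.5, 284.5 and 170.7 CPM in vehicle and at 66.9, 50.0, 0.678, 1.01 and 5.39 CPM at 30 µg/kg. Cd36, a receptor for fatty acids, averaged 365.2 ± 93.2 CPM in vehicle against 169.1 ± 64.8 CPM at 30 µg/kg, and Slco3a1 averaged 203.4 ± 39.4 and 98.6 ± 41.3 CPM. Each of the 3 was lowest, as Pzp was, in library 3 of the dose. These genes were selected for likeness over the same libraries, so their values carry no test. Of 15 genes with a male pattern or androgen response in the kidney, 13 were called lower and 1, Slc7a12, higher at 30 µg/kg. Their median log2 fold change was -1.23, beside 0.011 over all genes, of which 7.55% were called lower and 8.39% higher. Slco1a1 is among the 13 called lower but was selected for likeness to Pzp, so nothing is read from its part in this count. Pzp over the 40 libraries ran against Fgg, with a Spearman correlation of -0.677, and of -0.591 over the 30 libraries of 0.03 to 10 µg/kg. It ran less against Fgb (-0.417 and -0.0968) and Fga (-0.253 and -0.137). These are descriptions over libraries that share their dose groups.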

How the data were processed

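Bulk RNA sequencing of 40 kidneys was read from the deposited files of counts per gene, laid out as STAR writes them. The authors deposited whole-number counts in an unstranded and 2 stranded columns. The submitters' processing notes name FastQC 0.11.7, Trimmomatic 0.39, STAR 2.7.3a and DESeq2, and the builds GRCm39 and mm10 without saying which was used. The annotation is not given in the sources used here. Symbols and coordinates come from GENCODE M21 (GRCm38), which named 52083 of 55359 identifiers. The unnamed ones held 0.663% of counts.

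The unstranded column was tested with edgeR 4.0.16 (R 4.3.3; TMM, filterByExpr by group, robust quasi-likelihood F-test, prior count 0.125) on all 40 libraries, with Benjamini-Hochberg adjustment over 17345 genes, or 16913 for the trend over 30 libraries. Not counted as genes were 6.98 to 9.70% of reads that mapped to several places and 5.41 to 5.98% ambiguous ones. Without molecular identifiers, count-based limits cover counting error only. The script was tested on simulated counts. Alternatives were DESeq2 1.42.0, other scaling, no filter, the first stranded column, 2 groups alone, a term for the run of sample titles and each library left out. The first stranded column held 50.4 to 51.0% of the counts in the 2 stranded columns. It therefore does not separate strands, and the run with it rests on fewer reads.

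The members and lists were chosen with earlier results of these data known. Named genes were all members, for each list up to 3 called higher, 3 called lower and 3 most abundant at 30 µg/kg, and the 3 genes most like Fgb and Pzp. Not every list is described. Socs3, Il6, Havcr1 and the extra genes in the heat map fall outside this rule and were chosen after their values were seen. A deposited series-wide table was not used here. The values of 1 gene of the clotting list are not reported here.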

Additional observations from a re-analysis of the deposited data

Results flagged for a closer look

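In groups of 5 libraries, the lowest or highest value was compared with its nearest neighbour (gap over range, critical value 0.71). Of 74 groups of the members looked at, 8 held a library set apart. Chance sets apart a library in about 1 of 20 groups of spread values, or 3.7 of 74, but the count of 8 is not comparable with that. In 4 of the 8 all other libraries were at 0, so that the gap equals the range, and Fgb at 30 µg/kg was used to select the gene. Fgb in library 3 of 30 µg/kg, at 43.8 CPM, lay far above the next library, at 12.5 CPM. Fgg was set apart on the low side in library 1 of 0.3 µg/kg, at 3.71 CPM against 5.87 CPM for the next, and in library 5 of 1 µg/kg, at 4.48 CPM against 6.05 CPM. Serpina3n was low in library 1 of 30 µg/kg, at 0.398 CPM against 1.47 CPM for the next. The libraries with a few counts in groups otherwise at 0 were Saa1 in library 5 of 3 µg/kg (0.140 CPM) and in library 5 of 30 µg/kg (0.0764 CPM), and Saa3 in library 5 of 0.3 µg/kg (0.137 CPM) and in library 3 of 1 µg/kg (0.1253 CPM).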

How the results depend on the processing

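The count at 0.03 to 3 µg/kg was 0 in each alternative run. At 10 µg/kg the count of 1 became 0 without vehicle libraries 1 and 2 (added after the data were seen). It also became 0 in the fit to 2 groups alone, without the filter and with the first stranded column. Leaving out 1 library gave 0 to 1. At 30 µg/kg the count of 4 became 1 (Cp) in the fit to 2 groups alone, and 3 (without Lrg1) without the filter, with the adipocyte term (added) and without vehicle libraries 1 and 2. It was 3 to 4 with 1 library left out. Hp at 30 µg/kg, not called in any setting, ran from 0.09 with the adipocyte term to 1.58 without vehicle libraries 1 and 2. The trend over dose rank gave 3 in each alternative run. From 0.03 to 10 µg/kg the count of 1 became 2 with the adipocyte term and 0 with the first stranded column. It was 0 to 2 with 1 library left out. Serpina3n at 30 µg/kg, not called, became -0.31 with the adipocyte term and -0.0091 with the first stranded column. It ran from -0.18 to 0.90 with 1 library left out. The cause was not tested. Depth limits Saa1, Saa3 and the vehicle level of Fgb. No paired analysis was possible because the labels give no replicate numbers, and numbers in accession order pair nothing.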

Other observations

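Vehicle libraries 1 and 2 stood apart from the other 3 of their group in several of these genes. They had the lowest Pzp (29.4 and 23.1 CPM, against 48.4 to 53.6) and the lowest Cp (23.3 and 19.0 CPM, against 30.7 to 47.1). They had the highest Hp (18.5 and 13.8 CPM, against 3.63 to 9.01), Fgb (3.17 and 1.52 CPM, against 0.561 to 1.05) and Fgg (7.55 and 8.00 CPM, against 4.19 to 6.57). Serpina1d, which encodes an alpha-1-antitrypsin, stood at 16.1 and 24.4 CPM in them and at 120.1 to 146.2 CPM in the others. These libraries were picked out after their values were seen.

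Transcripts of the complement subunit C1q, made by macrophages, were higher at 10 µg/kg, where the fibrinogen genes were not called. C1qa averaged 11.8 ± 1.88 CPM in vehicle, 30.3 ± 4.45 CPM at 10 µg/kg and 33.2 ± 6.35 CPM at 30 µg/kg (SD, n = 5; edgeR adjusted p = 5.20e-08 and 3.34e-09). C1qb and C1qc were 1.19 and 1.22 higher on the log2 scale at 10 µg/kg (adjusted p = 1.24e-07 and 2.74e-06).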
